A study of Arabidopsis thaliana with 9 samples.

Results

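The plant nuclear lamina and the LINC complex (linker of nucleoskeleton and cytoskeleton) were represented by 10 Arabidopsis thaliana genes, chosen by gene identifier from the 32833 genes of the count table. They were the lamina genes CRWN1 to CRWN4 and KAKU4, the inner membrane genes SUN1 and SUN2, and the outer membrane genes WIP1, WIT1 and WIT2. Messenger RNA had been sequenced from callus, the tissue that cut plant parts form on hormone medium. It came from 3 genotypes in ecotype Col-0, with 3 libraries each. These were a pnet1 mutant labelled as a knockout, a line that overexpresses PNET1, and wild type. The labels give no treatment and name neither the allele nor the promoter of the transgene. Hypocotyl pieces of dark-grown seedlings had been kept for 4 days on callus induction medium and 10 days on shoot induction medium in all groups.

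CRWN proteins are coiled-coil proteins that line the inner face of the plant nuclear envelope, where they take the place that lamins have in animals, and KAKU4 binds CRWN1 and CRWN4 there. SUN proteins span the inner nuclear membrane and bind, in the space between the membranes, the tails of KASH proteins such as WIP1, which sit in the outer membrane. WIT1 and WIT2 are partners of WIP proteins on the outer membrane. WIT2 also binds a myosin, so that this bridge moves and shapes the nucleus. PNET1 is a membrane protein of the same envelope, and the comparison asks whether transcripts of the lamina and the bridge differ when PNET1 is lost or raised.

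Of the 10 genes 9 could be tested, and their fold changes against wild type ran from 0.862 to 1.18 over both lines. CRWN1 and CRWN2 rose in the mutant, to 1.18 and 1.15 times the wild-type level (30% of all genes tested were called in this comparison); the CRWN2 call was lost in 4 of 19 alternative settings. WIT1 fell in the overexpression line to 0.862 times wild type (11.2% of all genes called), a call lost in 18 of the 19. Against the mutant, CRWN1, WIP1 and WIT1 were lower in the overexpression line and WIT2 was higher, with the WIT2 call lost in 11 of the 19 (43.5% of all genes called). CRWN4 was listed at 0 in all 9 libraries. It lies inside another gene in the annotation, as given further on, and how reads shared by both genes were counted is not known. Whether this bears on the 0 was not tested, and no level is given for CRWN4.

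The sequences just upstream of the genes that rose in the mutant are shown with that of their relative CRWN3, which did not pass the test. Each is the 250 bases before the annotated gene start, read from the RefSeq annotation of TAIR10.1 on the strand of the gene. They lie at chr1:25156390-25156639 (minus strand) for CRWN1, chr1:4515214-4515463 (plus strand) for CRWN2 and chr1:25839542-25839791 (minus strand) for CRWN3, and none overlaps another gene. Capitals mark the letters AACGG on either strand (CCGTT when read on the other strand), the core of the mitosis-specific activator element that plant MYB factors bind in genes of cell division.
CRWN1: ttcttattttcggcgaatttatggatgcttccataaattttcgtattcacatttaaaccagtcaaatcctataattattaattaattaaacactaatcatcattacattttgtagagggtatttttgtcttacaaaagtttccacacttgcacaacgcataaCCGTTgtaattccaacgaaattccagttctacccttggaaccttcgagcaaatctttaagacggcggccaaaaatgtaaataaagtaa
CRWN2: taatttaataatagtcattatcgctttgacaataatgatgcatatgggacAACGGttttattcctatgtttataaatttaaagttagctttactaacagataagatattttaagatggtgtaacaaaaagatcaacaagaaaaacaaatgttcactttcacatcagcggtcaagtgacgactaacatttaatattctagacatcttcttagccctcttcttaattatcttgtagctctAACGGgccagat
CRWN3: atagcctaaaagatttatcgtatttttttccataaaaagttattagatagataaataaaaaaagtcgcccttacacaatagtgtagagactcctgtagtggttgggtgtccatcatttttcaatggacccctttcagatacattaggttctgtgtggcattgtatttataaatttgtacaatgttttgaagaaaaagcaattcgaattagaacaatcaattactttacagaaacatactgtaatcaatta
The core was present at -88 from the gene start in CRWN1 and at -200 and -12 in CRWN2, and not in this window of CRWN3. WIP1 held it at -137, so 3 of the 10 genes did, against 20.6% of 27419 protein-coding genes. The site II element TGGGCC was found in SUN2 alone (13.7% of all windows). The telo box AAACCCTA (4.47%) and the E2F site letters TTCCCGCC or TTTCCCGC (0.861%) were in none of the 10 windows. The windows of SUN1, SUN2, WIP1 and WIT1 overlap a neighbouring gene. None of the motifs searched overlapped another in these windows, and a match describes the letters only.

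Total counts per library ranged from 16890848 to 19493969, and each gene of the set other than CRWN4 rested on 287 to 3002 counts per library. PNET1 (AT1G07970) followed the labels. It had 1.54, 1.12 and 1.37 CPM (counts scaled to library size with TMM factors) in the mutant, 4590, 4912 and 5215 CPM in the overexpression line and 32.7, 31.4 and 28.9 CPM in wild type. Along the first principal component (67.7% of the variance) wild-type replicate 3 (-1.57) and overexpression replicate 1 (-23.2) lay closest to the mutant (44.4 to 51.2) within their groups. Separate cultures are not stated for the replicates, and the p-values cover only the spread among the libraries at hand, which may be technical. Of 8 callus formation markers, LBD29 and PLT1 were at 0 in wild type and LBD16 was near 1 CPM. Wild-type means were 0.339 CPM for LBD18, 0.113 for PLT2 and 2.88 for WOX5, and WOX11 and PLT3 were high.

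Other cell types' markers differed between the genotypes in the same libraries. In the mutant against wild type, edgeR called 12.6% of all genes higher and 17.4% lower. The summed level of 8 photosynthetic markers was 1482 to 1578 CPM in the mutant, 3594 to 4929 in the overexpression line and 2787 to 3544 in wild type, and against wild type 8 of 8 fell in the mutant. Of 8 epidermis and stomata markers 8 fell in the mutant, with sums of 215 to 272 CPM in the mutant, 693 to 946 in the overexpression line and 495 to 651 in wild type. All 7 phloem markers rose in the mutant, with sums of 459 to 511 CPM in the mutant, 264 to 333 in the overexpression line and 271 to 337 in wild type. The 10 markers of dividing cells summed to 545 to 568 CPM in the mutant, 554 to 571 in the overexpression line and 561 to 596 in wild type, and 3 of them fell in the mutant. The 8 callus formation markers summed to 265 to 288 CPM in the mutant, 139 to 163 in the overexpression line and 172 to 189 in wild type. WOX11 and PLT3 made up most of this sum, with means of 85.4 and 88.0 CPM in wild type. Of 5 that could be tested, 2 (WOX11 and PLT3) rose and 1 (WOX5) fell in the mutant, WOX5 by a log2 value of -0.90 (edgeR adjusted p = 0.00334). In the overexpression line against wild type WOX5 rose (0.67, edgeR adjusted p = 0.0239) and WOX11 fell (-0.35, 0.0263). The part of these differences in the results that follow was not tested, and in whole callus fewer cells of a type and less RNA per cell cannot be told apart.

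Levels are compared between genes on the FPKM scale (fragments scaled to gene length and library size), as deposited. CRWN1 was the most abundant of the set, at 40.2 ± 1.11 FPKM in the mutant, 35.0 ± 0.820 in the overexpression line and 33.9 ± 1.36 in wild type (SD, n = 3 each). Wild-type means then ran SUN1 (24.3 FPKM), KAKU4 (20.2), CRWN3 (20.1), WIP1 (18.1), SUN2 (14.1), CRWN2 (10.9), WIT1 (9.51) and WIT2 (8.12). KAKU4 and CRWN3 overlapped in wild type, and every other pair of neighbours was apart in all 3 libraries. The order was the same in the mutant, where CRWN3 also overlapped WIP1. With PNET1 overexpressed WIT2 stood above WIT1, with 8.83 to 9.20 FPKM for WIT2 against 8.19 to 8.33 FPKM for WIT1, whereas WIT1 was above WIT2 in each mutant and wild-type library.

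**Figure D1:**
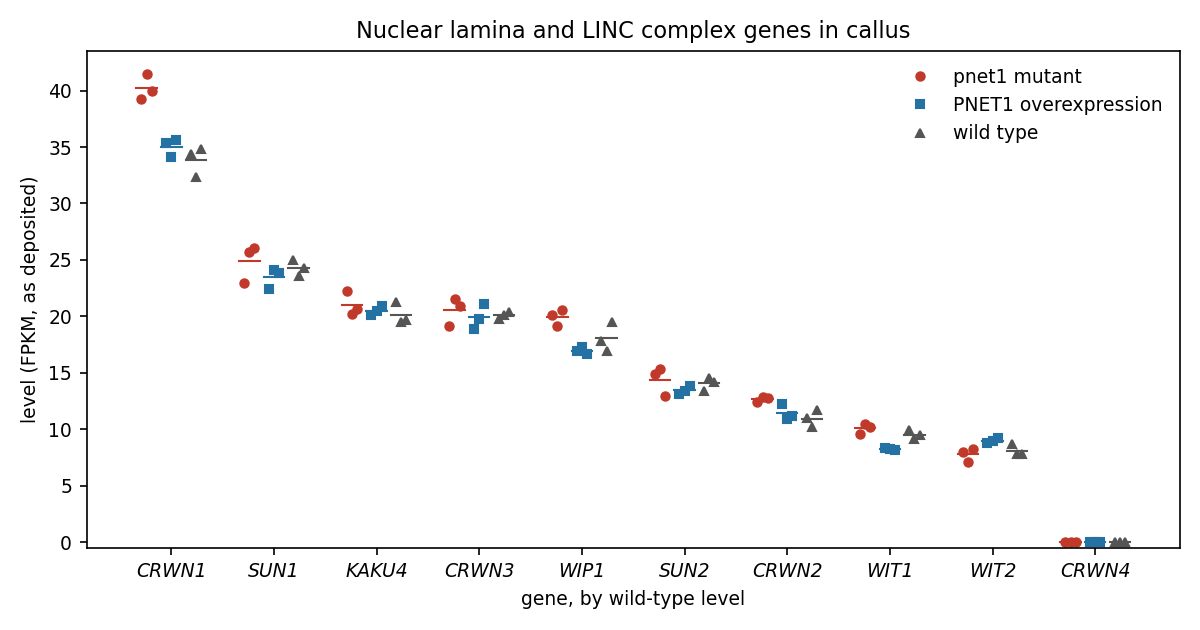
Deposited FPKM of the 10 genes on the y axis, genes ordered on the x axis by their wild-type level, with 1 point per library and a bar at the mean of 3. CRWN1 stands highest in all genotypes, the WIT1 and WIT2 points change places in the overexpression line, and CRWN4 is listed at 0 throughout.

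Within the lamina family, CRWN1 provided more than CRWN2 and CRWN3 together. Its share of the summed FPKM of CRWN1 to CRWN3 was 54.8% ± 0.568 in the mutant, 52.8% ± 0.343 in the overexpression line and 52.2% ± 0.613 in wild type. The sum itself was 73.4 ± 2.48 FPKM in the mutant, 66.4 ± 1.57 in the overexpression line and 64.9 ± 2.15 in wild type (SD, n = 3 each). The lowest mutant sum, 70.9 FPKM, was above the highest sum of the other libraries, 67.9 FPKM. CRWN4 is left out of these sums.

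CRWN1 (AT1G67230; chromosome 1, 25151211 to 25156389, minus strand, 8 exons in TAIR10) encodes a main lamina protein whose loss is known to give small, round nuclei. It had 161.7, 170.9 and 164.9 CPM in the mutant, 146.5, 139.9 and 145.9 CPM in the overexpression line and 142.4, 134.0 and 144.3 CPM in wild type. Every mutant library was above every library of the other genotypes, and the overexpression and wild-type libraries overlapped. The log2 fold change of the mutant against wild type was 0.24 (SE 0.04, edgeR quasi-likelihood test, Benjamini-Hochberg adjusted p = 0.000475), which is 1.18-fold with a 95% interval of 1.11 to 1.26. For the overexpression line against wild type it was 0.04 (95% interval -0.05 to 0.13, edgeR adjusted p = 0.625). Against the mutant the overexpression line was lower, at a log2 value of -0.20 (SE 0.04, edgeR adjusted p = 0.00103), a value that was -0.11 when an offset corrected for length and GC content (edgeR adjusted p = 0.0377).

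CRWN2 (AT1G13220; chromosome 1, 4515464 to 4520306, plus strand, 6 exons), a relative with the same coiled-coil build, had 50.3, 52.2 and 51.9 CPM in the mutant, 50.1, 44.0 and 45.2 CPM in the overexpression line and 44.8, 41.5 and 47.6 CPM in wild type. The mutant libraries were above all others, overexpression replicate 1 by little. It rose in the mutant, with a log2 fold change of 0.20 against wild type (SE 0.06, edgeR adjusted p = 0.0179), or 1.15-fold with a 95% interval of 1.05 to 1.26. The call ended without mutant replicate 2 (log2 0.19, edgeR adjusted p = 0.0587), mutant replicate 3 (0.20, 0.0562) or wild-type replicate 2 (0.16, 0.0990), and with the length and GC offset (0.14, 0.0965). The log2 fold change of the overexpression line was 0.06 against wild type (95% interval -0.08 to 0.19) and -0.15 against the mutant. Its value against the mutant missed the threshold (edgeR adjusted p = 0.0611) and passed it without overexpression replicate 1 (-0.19, 0.0190); with the offset it was -0.07 (0.420).

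CRWN3 (AT1G68790; chromosome 1, 25834686 to 25839541, minus strand, 8 exons) showed no such difference. Its levels were 74.8, 84.0 and 81.5 CPM in the mutant, 74.1, 76.9 and 81.6 CPM in the overexpression line and 77.4, 79.1 and 79.8 CPM in wild type, and all groups overlapped. The log2 fold change of the mutant against wild type was 0.02, with a 95% interval of -0.09 to 0.13. KAKU4 (AT4G31430; chromosome 4, 15248377 to 15252837, plus strand, 14 exons) had 49.5, 45.1 and 45.9 CPM in the mutant, 45.0, 45.4 and 46.3 CPM in the overexpression line and 47.5, 43.8 and 44.0 CPM in wild type. Its libraries overlapped in every comparison, and the log2 fold change against wild type was 0.05 in the mutant (95% interval -0.06 to 0.17) and 0.02 in the overexpression line (-0.10 to 0.13). Over all 9 libraries the coefficient of variation was 3.89% for KAKU4 and 4.17% for CRWN3, the lowest of the 9 tested genes of the set. The median was 7.96% over these 9 genes and 10.9% over all genes tested, which were not matched for counts.

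**Figure D2:**
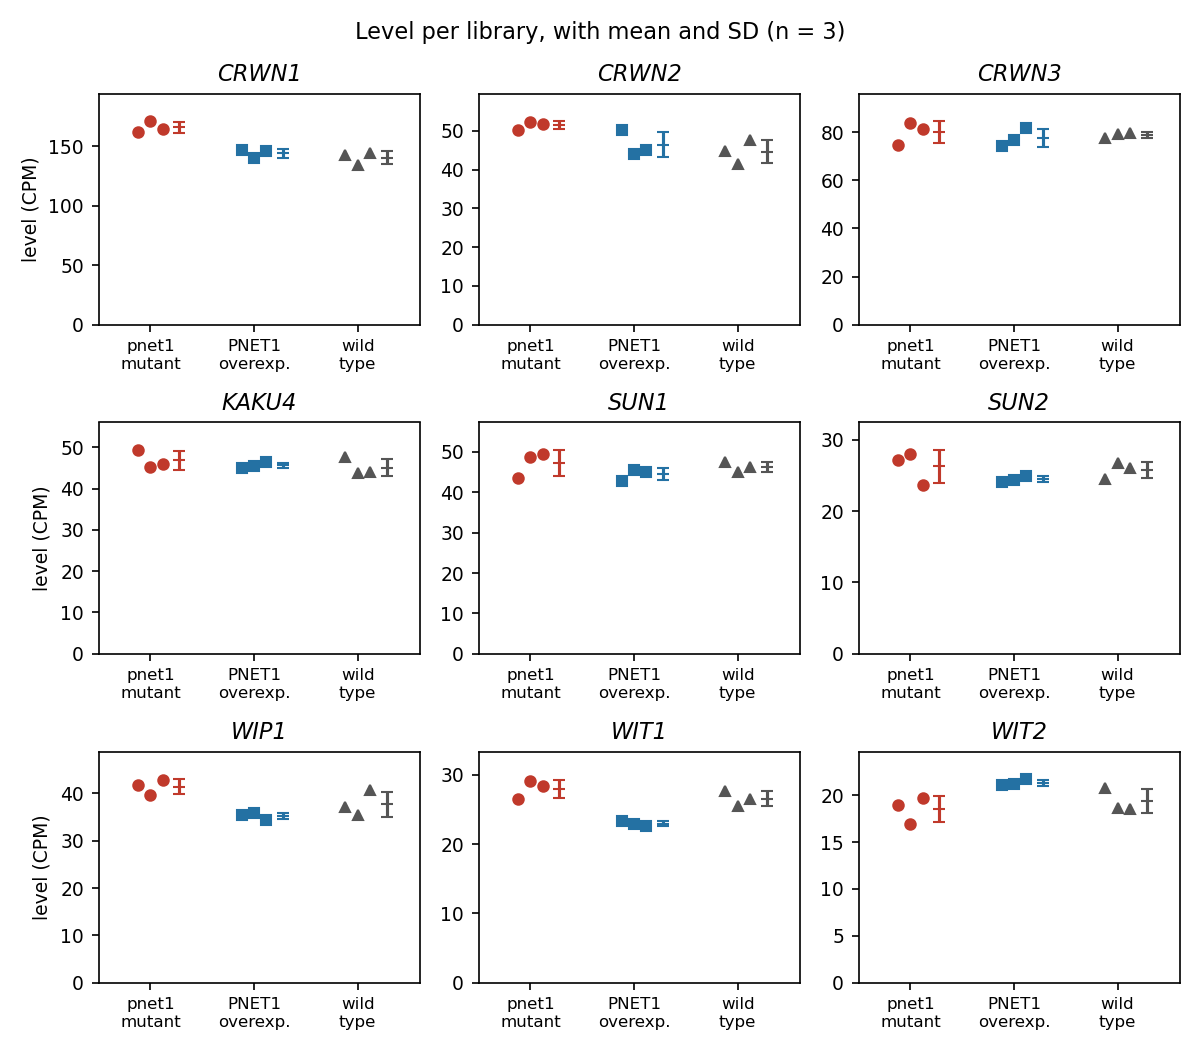
Level in CPM (y axis, from 0) of the 9 genes with counts in each library, by genotype on the x axis, with mean and SD of 3 libraries to the right of each group. The mutant libraries of CRWN1 (161.7 to 170.9) lie above all others, the overexpression libraries of WIT1 (22.6 to 23.3) lie below all others, and the groups of CRWN3, KAKU4, SUN1 and SUN2 overlap.

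CRWN4 (AT5G65770), a lamina gene whose loss is known to change nuclear shape, had 0 counts in every library. In TAIR10 it occupies chromosome 5, 26311311 to 26316025 on the plus strand, wholly inside the locus of ATBCAT-5 (AT5G65780, a branched-chain amino acid aminotransferase), which the deposited table places at 26311311 to 26318857 on the same strand with a length of 5571 bases. That length equals the summed length of all reference exons recorded under the ATBCAT-5 locus, and these cover 3659 of the 3834 exon bases of CRWN4 (95.4%). The current RefSeq transcript of ATBCAT-5 alone starts at 26315390 and covers 466 of them (12.2%), and the RefSeq notes mark the longer ATBCAT-5 model as obsolete. Of 58 protein-coding genes inside another gene on the same strand, CRWN4 among them, 31 (53.4%) had 0 counts in every library. Of 27570 other protein-coding genes 3955 (14.3%) did. Being inside was judged from gene start and end alone, with or without shared exons, and the groups were not matched for length or level. Whether these shares bear on the 0 of CRWN4 was not tested.

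**Figure D3:**
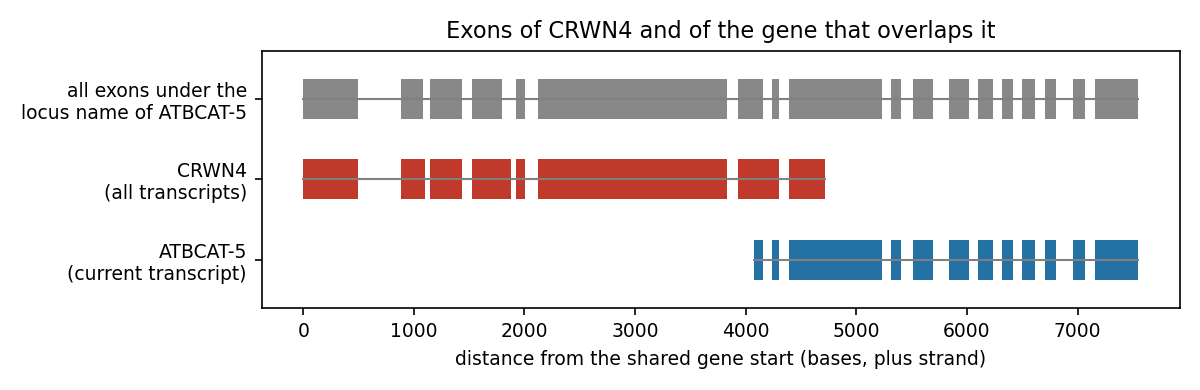
Exons as boxes along the distance in bases from the shared gene start (x axis), for all exons recorded under the ATBCAT-5 locus name, for CRWN4 and for the current ATBCAT-5 transcript. The boxes of the top row cover 95.4% of the CRWN4 exon bases, and those of the current transcript 12.2%.

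ATBCAT-5, looked at after its values were seen, had 868, 855 and 980 counts in the mutant, 924, 1009 and 1035 counts in the overexpression line and 1151, 885 and 1000 in wild type. The groups overlapped, and its log2 fold change against wild type was -0.11 for the mutant and -0.01 for the overexpression line, neither past the edgeR threshold (adjusted p = 0.198 and 0.934). With the length and GC offset it passed in the mutant (-0.20, edgeR adjusted p = 0.0142). Against the mutant the overexpression line had 0.10 (edgeR adjusted p = 0.212), which passed with the offset (0.23, 0.0043) and without overexpression replicate 1 (0.16, 0.0460). The sources used here do not give how the counting treated reads that fall in both genes, and whether reads of CRWN4 were assigned to ATBCAT-5 or left out was not tested. No level, limit or fold change is therefore given for CRWN4.

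The inner membrane genes SUN1 and SUN2 did not pass in any comparison. SUN1 (AT5G04990; chromosome 5, 1471481 to 1474029, minus strand, 2 exons) had 43.6, 48.8 and 49.5 CPM in the mutant, 42.9, 45.6 and 44.9 CPM in the overexpression line and 47.6, 45.1 and 46.4 CPM in wild type. SUN2 (AT3G10730; chromosome 3, 3358288 to 3360702, minus strand, 2 exons) had 27.2, 27.9 and 23.6 CPM in the mutant, 24.1, 24.3 and 25.0 CPM in the overexpression line and 24.5, 26.7 and 26.0 CPM in wild type. Both genes overlapped between all genotypes. The log2 fold change of SUN1 was 0.03 in the mutant (95% interval -0.09 to 0.15) and -0.06 in the overexpression line (-0.18 to 0.06), each against wild type. For SUN2 the values were 0.03 (-0.13 to 0.18) in the mutant and -0.07 (-0.23 to 0.08) in the overexpression line. SUN1 made up 63.3% ± 3.17 of the summed FPKM of the pair in the mutant, 63.6% ± 0.652 in the overexpression line and 63.3% ± 1.61 in wild type (SD, n = 3 each).

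WIP1 (AT4G26455; chromosome 4, 13365283 to 13367531, plus strand, 2 exons), the KASH protein that SUN proteins hold in the outer membrane, had 41.8, 39.7 and 42.8 CPM in the mutant, 35.4, 35.8 and 34.4 CPM in the overexpression line and 37.2, 35.4 and 40.6 CPM in wild type. The mutant libraries were above all overexpression libraries, and wild type overlapped both lines. The overexpression line was lower than the mutant, at a log2 value of -0.24 (SE 0.06, edgeR adjusted p = 0.0043), 0.849-fold with a 95% interval of 0.776 to 0.929. Neither line passed against wild type: the mutant had a log2 fold change of 0.13 (edgeR adjusted p = 0.109) and the overexpression line of -0.10 (0.312). Wild-type replicate 3 was the highest of its group, and without it the mutant value was 0.19 (edgeR adjusted p = 0.0357).

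WIT1 (AT5G11390; chromosome 5, 3633649 to 3636934, plus strand, 5 exons), which with its relative WIT2 binds WIP proteins and, in root tips, holds a Ran regulator at the envelope, had 26.5, 29.1 and 28.4 CPM in the mutant, 23.3, 22.8 and 22.6 CPM in the overexpression line and 27.6, 25.5 and 26.5 CPM in wild type. All overexpression libraries were below all others, and the mutant and wild type overlapped. Against the mutant the log2 fold change of the overexpression line was -0.29 (SE 0.07, edgeR adjusted p = 0.0018), and against wild type -0.21 (SE 0.07, edgeR adjusted p = 0.0486). The call against wild type was lost in 18 of 19 alternative settings, with an adjusted p up to 0.145 (DESeq2) and a log2 fold change between -0.24 and -0.18. The end of WIT1 overlaps AT5G11400 on the other strand by 321 bases, and the sources used here do not give the strand setting of the counting.

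WIT2 (AT1G68910, chromosome 1, 25908046 to 25911277, minus strand, 5 exons), which binds myosin XI-I, went the other way between the overexpression line and the mutant. It had 18.9, 16.9 and 19.7 CPM in the mutant, 21.1, 21.2 and 21.7 CPM in the overexpression line and 20.8, 18.7 and 18.6 CPM in wild type. The overexpression libraries were above all others, wild-type replicate 1 by little, and the mutant and wild type overlapped. The overexpression line was higher than the mutant, at a log2 value of 0.20 (SE 0.08, edgeR adjusted p = 0.0490), a call lost in 11 of 19 alternative settings, without mutant replicate 2 among them (0.14, edgeR adjusted p = 0.215). Against wild type its value was 0.14 (95% interval -0.03 to 0.30, edgeR adjusted p = 0.282). The difference between WIT1 and WIT2 in their response was not tested.

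In the pair, WIT1 made up 56.4% ± 2.67 of the summed FPKM in the mutant, 47.9% ± 0.735 in the overexpression line and 54.0% ± 0.938 in wild type (SD, n = 3 each). The overexpression libraries ran from 47.1% to 48.5%, below the lowest of the other libraries, 53.1%. The sum of the pair was 17.9 ± 0.541 FPKM in the mutant, 17.3 ± 0.118 in the overexpression line and 17.6 ± 0.893 in wild type. The sums of the 3 genotypes overlapped.

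The calls are set beside those over all genes. In the mutant against wild type, edgeR called 2 of 9 higher and 0 lower, where it called 30% of 19698 genes (12.6% higher and 17.4% lower). DESeq2 gave the same 2 higher and 0 lower. In the edgeR fit 8 of the 9 log2 values were above 0, and the negative one, that of WIT2 (-0.06), had an unadjusted p of 0.441. In absolute size the log2 fold changes had a median of 0.06 over the 9 genes and 0.15 over all genes. With fold changes from 0.957 to 1.18 in the mutant, 7 of the 9 genes were within 10% of wild type, and the outermost limits of their 95% intervals were 0.851 and 1.26.

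In the overexpression line against wild type, edgeR called 1 of 9 lower and 0 higher, against 11.2% of all genes (5.97% higher and 5.24% lower); DESeq2 called 0, and 1 of 9 had an unadjusted p under 0.05 with either tool. Fold changes ran from 0.862 to 1.10 with outermost limits of 0.782 and 1.23, and in absolute size the log2 values had a median of 0.06 over the 9 genes and 0.12 over all genes. In the overexpression line against the mutant, 3 of 9 were lower and 1 higher, against 43.5% of all genes (23% higher and 20.6% lower). Here the log2 values had a median of -0.10 over the 9 genes and -0.02 over all genes, and in absolute size 0.15 and 0.20, with fold changes from 0.818 to 1.15. These comparisons share libraries, so their values are not independent of each other.

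**Figure D4:**
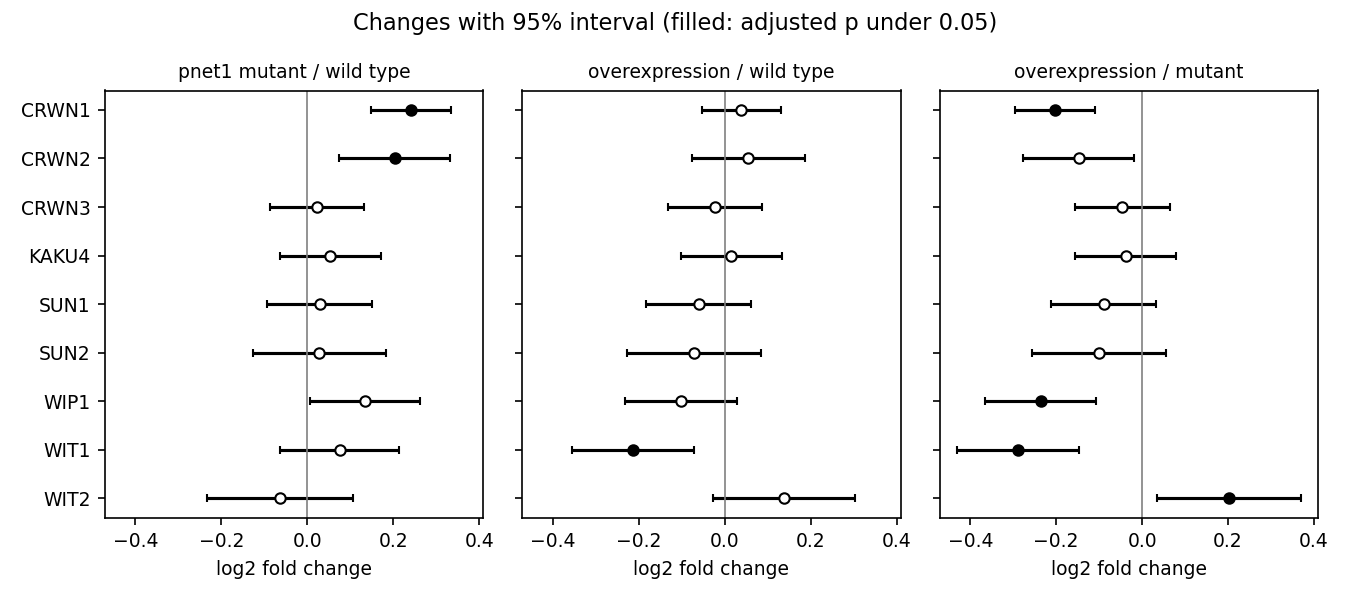
Log2 fold change with 95% interval (x axis) of the 9 tested genes in the mutant against wild type, the overexpression line against wild type, and the overexpression line against the mutant; filled points have an edgeR adjusted p under 0.05. CRWN1 (0.24) and CRWN2 (0.20) are filled in the first panel, WIT1 (-0.21) in the second, and CRWN1, WIP1, WIT1 and WIT2 in the third.

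A wider list of 21 genes held other SUN and KASH proteins and other proteins of the envelope, and 18 of them could be tested. In the mutant against wild type, where 30% of all genes were called, 0 of 18 passed with edgeR or DESeq2 at the main settings, and 6 had an unadjusted p under 0.05 in edgeR and 2 in DESeq2. Up to 3 were called in alternative settings. WIP3 (log2 fold change 0.15, edgeR adjusted p = 0.0507) gained a call in 9 of 19 and AT3G05830 (-0.32, 0.0527) in 5 of 19. Against wild type the overexpression line had 0 of 18 past either tool, where 11.2% of all genes were called, with 5 and 3 under 0.05 unadjusted and up to 1 called in alternative settings. Between the overexpression line and the mutant edgeR called 3 higher and 6 lower, where 43.5% of all genes were called, and DESeq2 called 3 higher and 1 lower. The median log2 fold change of the 18 in that comparison was 0.01.

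SINE1, a KASH protein that binds actin and is known from guard cells, had 19.2, 16.4 and 18.7 CPM in the mutant, 23.3, 24.3 and 28.3 CPM in the overexpression line and 23.0, 20.2 and 20.2 CPM in wild type. The overexpression libraries were above all others and the mutant libraries below all others. The summed epidermis and stomata markers and the summed photosynthetic markers given above were ordered in the same way. Among the former, ATML1 and CER6 overlapped between the overexpression line and wild type. Among the latter, LHCB2.1, LHCB3, LHCA1, PSAD1, GLK1 and RCA did. In that comparison edgeR called 2 of 8 epidermis and stomata markers higher, and 0 of 8 photosynthetic markers. A link between SINE1 and these markers was not tested. For SINE1 the log2 fold change was 0.48 in the overexpression line against the mutant (SE 0.09, edgeR adjusted p = 0.000273). Its values against wild type were -0.23 for the mutant and 0.26 for the overexpression line, and neither passed. SINE2, its close relative, had 17.9, 18.8 and 20.3 CPM in the mutant, 15.9, 16.4 and 15.7 CPM in the overexpression line and 16.3, 17.5 and 16.3 CPM in wild type. It was lower in the overexpression line than in the mutant (-0.25, SE 0.08, edgeR adjusted p = 0.0168), without an overlap of their libraries; the call was lost in 4 of 19 alternative settings, DESeq2 among them (0.0610).

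WIP3, the most abundant of the 3 WIP genes per length, had 55.4, 52.3 and 60.8 CPM in the mutant, 46.9, 45.3 and 45.4 CPM in the overexpression line and 50.0, 49.9 and 51.8 CPM in wild type. The 3 groups did not overlap, with the mutant highest and the overexpression line lowest, and WIP3 was lower in the overexpression line than in the mutant, at a log2 value of -0.29 (SE 0.06, edgeR adjusted p = 0.000379). The share of WIP1 in the summed FPKM of WIP1 to WIP3 was 36.6% ± 0.868 in the mutant, 36.5% ± 0.656 in the overexpression line and 36.6% ± 1.17 in wild type (SD, n = 3 each).

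AT3G05830, described in the deposited table as a spindle pole body component-like protein, had 8.10, 7.44 and 7.80 CPM in the mutant, 12.3, 9.84 and 13.3 CPM in the overexpression line and 9.65, 10.2 and 9.30 CPM in wild type. AT5G26770, described there by its match to AT3G05830, had 6.73, 7.20 and 8.35 CPM in the mutant, 9.59, 9.67 and 11.1 CPM in the overexpression line and 9.13, 9.52 and 8.82 CPM in wild type. For both genes the mutant libraries were below all others. They were higher in the overexpression line than in the mutant, by 0.60 (SE 0.12, edgeR adjusted p = 0.000387) and 0.45 (SE 0.11, edgeR adjusted p = 0.00396) on the log2 scale.

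The remaining calls between the overexpression line and the mutant were small and lower: myosin XI-I, the motor that binds WIT2 (-0.14), the Ran GTPase activators RANGAP1 (-0.14) and RANGAP2 (-0.18), and AT1G03830, a guanylate-binding family protein (-0.16). DESeq2 called none of these 4, at adjusted p from 0.0839 to 0.137, and the myosin XI-I libraries overlapped. Over 19 alternative settings the call was lost in 10 for myosin XI-I, 6 for RANGAP1, 5 for RANGAP2 and 11 for AT1G03830. The length and GC offset gave -0.02 for myosin XI-I (edgeR adjusted p = 0.734) and -0.10 for AT1G03830 (0.202). Without overexpression replicate 1 the myosin XI-I value was -0.08 (0.266), and without overexpression replicate 2 the RANGAP2 value was -0.11 (0.179). RANGAP1 overlaps other genes on the opposite strand over 973 bases. SINE4 had 0 counts in all libraries, which allows up to 0.154 to 0.178 CPM at 3 counts per library; this limit covers counting error only. NEAP4 had at most 2 counts and GIP2, a partner of the microtubule nucleation complex, at most 6 counts in a library, so neither was tested, and GIP2 overlaps a gene on the opposite strand over 640 bases.

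**Figure D5:**
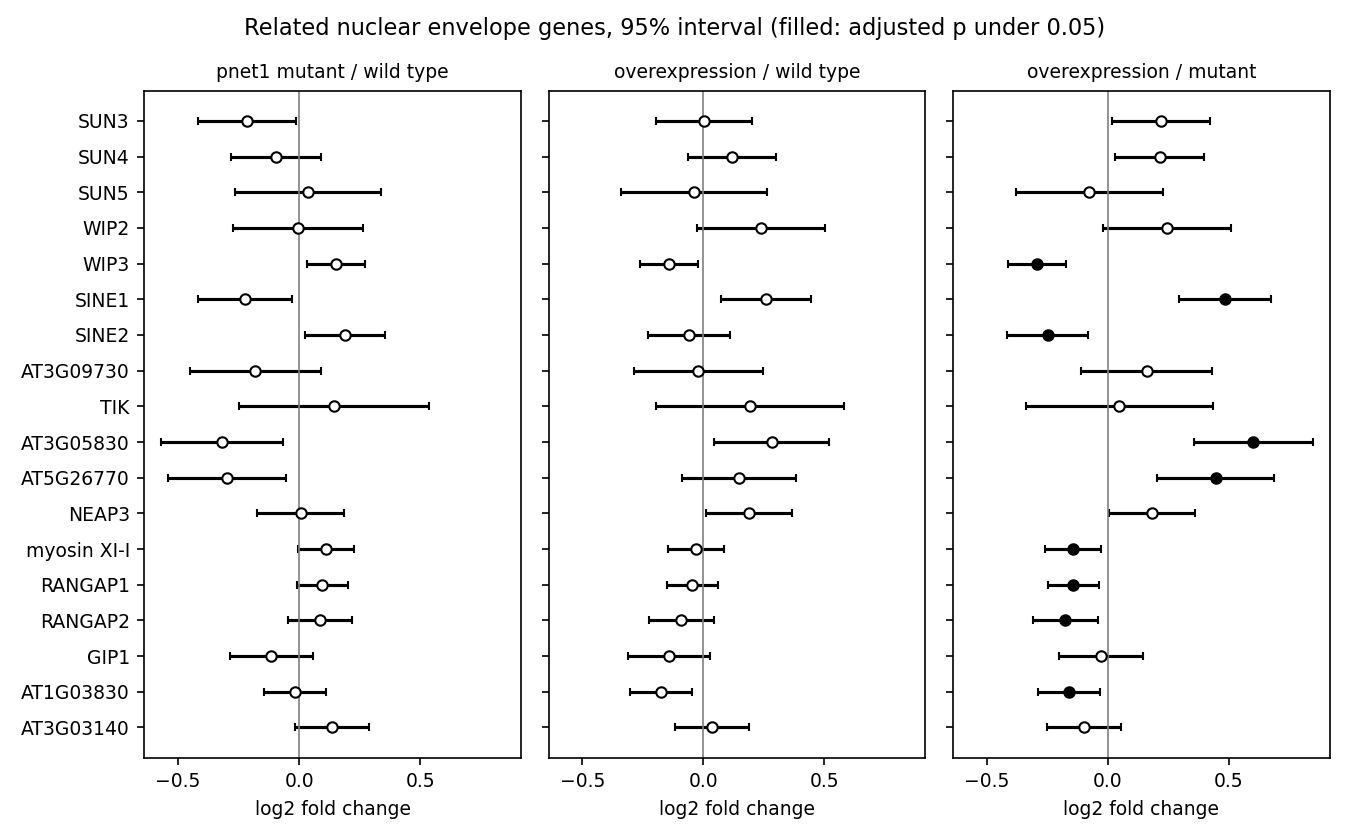
Log2 fold change with 95% interval (x axis) of the 18 tested genes of the wider list, in panels for the mutant against wild type, the overexpression line against wild type and the overexpression line against the mutant; filled points have an edgeR adjusted p under 0.05. No point is filled in the first panels, and 3 points to the right (AT3G05830 at 0.60) and 6 to the left (WIP3 at -0.29) are filled in the last.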

How the data were processed

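Counts per gene for 9 callus libraries were used as deposited by the authors, as raw counts with 1 column per library. The submitters' processing notes name HISAT2 2.0.4, HTSeq 0.6.1p1 and TAIR10; the sources used here do not give the strand setting, the rule for overlapping genes or any filter. Libraries were strand-specific, per the labels' protocols. Levels between genes were compared on FPKM values from another table that the authors deposited. Of 32833 genes 32548 were found in the RefSeq TAIR10.1 annotation and 32520 had the same start and end. Mutant columns carry an extra 1 in their name and were read as 1 allele with replicates 1 to 3. PNET1 was taken as AT1G07970 from background knowledge, since the files do not use that name.

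Counts were fitted with edgeR 4.0.16 in R 4.3.3: filterByExpr (minimum count 10, minimum total count 15; 19698 genes kept), TMM factors, 1 robust quasi-likelihood fit with 1 mean for each genotype, contrasts between genotypes and Benjamini-Hochberg adjustment over all genes tested, called under 0.05. The steps were run on simulated data with changes of 1.5-fold and 2-fold against wild type. Of the 1.5-fold changes 94% were recovered for the mutant and 92% for the overexpression line. Smaller changes, such as those of the 9 genes, were not simulated, nor was the overexpression line against the mutant. Fold changes are on the scale of the fit. Intervals are 95% from the same fit and do not cover error shared by the libraries. Alternatives were RLE, upper quartile and no scaling factors, DESeq2 1.42.0, a filter at 1 count or at a minimum count of 30, and a replicate block. Others were an offset for gene length and GC content, only the 6 libraries compared, and leaving out each library. The last of the 19 left out wild-type replicate 3 and overexpression replicate 1 together and was chosen after seeing the data. Counts out of 19 include it. All 10 genes are named; of the wider list, those called in a comparison and those not tested. The genes, lists and tests were chosen with earlier results of these data known.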

Additional observations from a re-analysis of the deposited data

How the results depend on the processing

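Of the 513 values that the 9 genes took under 19 alternative settings, 476 were called or uncalled as in the main fit. Most of these 476 were uncalled in both. A call was lost in 33 values and gained in 4. The losses were 18 for WIT1 in the overexpression line against wild type and 11 for WIT2 in that line against the mutant. The other 4 were for CRWN2 in the mutant against wild type. In 0 called values the sign changed. It changed in 13 uncalled values, none beyond 0.04 in size. CRWN1 in the mutant against wild type kept its call in all 19 (log2 0.18 to 0.26, adjusted p 4.6e-05 to 0.0044), as did CRWN1, WIP1 and WIT1 in the overexpression line against the mutant. In the mutant against wild type the number of the 9 genes called was 1 with the GC and length offset and 1 to 3 on leaving out single libraries. In the overexpression line against wild type it was 0 with RLE factors, upper quartile factors, library totals only, DESeq2, no filter beyond 1 count, the filter at minimum count 30, the replicate block and only the 6 libraries compared, 0 on leaving out each library, and 0 without wild-type replicate 3 and overexpression replicate 1 together, a setting chosen after seeing the data. The cause of these changes was not tested. Over all genes, that comparison gave 2208 calls, 1430 with only its 6 libraries, and 737 (without wild-type replicate 3) to 3125 (without overexpression replicate 1) on leaving out single libraries, with 944 without overexpression replicate 3 and 1111 without overexpression replicate 2.

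Same-numbered libraries had correlations of their deviations between -0.18 and 0.08, and differently numbered ones between -0.10 and 0.24. The labels do not say whether same-numbered libraries were prepared together, and with 3 libraries per genotype these correlations cannot settle it. With a replicate block the 9 genes had 2 calls in the mutant against wild type, 0 in the overexpression line against wild type and 3 in the overexpression line against the mutant, and all genes had 5683, 1726 and 8366 calls. The 9 genes rest on at least 287 counts per library, and 3 genes of the wider list had too few counts to be tested.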
